A study of Danio rerio with 24 samples.

Results

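The aminoacyl tRNA synthetase genes of the zebrafish liver were examined in 24 fish. They were chosen by name: eprs or eprs1, or a letter for an amino acid followed by ars and an optional short suffix, with counts above 100 in at least 3 fish. Of the 28210 genes counted, 36 had such a name and 35 passed the count filter, against 11801 genes that passed it in all. Members ending in ars2 were counted as mitochondrial (14 members) and the rest as cytosolic (21 members), by name alone. The gene left out, tarsl2, had 0 to 135 counts and exceeded 100 in 1 fish, A+ replicate 2. All 21 cytosolic and 8 mitochondrial members were above 100 counts in every fish, and the other members in at least 8 fish.

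Aminoacyl tRNA synthetases join each amino acid to its tRNA, the step that fixes the meaning of a codon and supplies the ribosome. The cytosol and the mitochondrion each have a set of these enzymes, and both sets are encoded in the nucleus and translated in the cytosol. In mammals the glycyl and lysyl enzymes of both compartments come from a single gene each, so gars and kars are counted here as cytosolic by name only. Some cytosolic enzymes sit in a large complex held together by scaffold proteins (AIMP proteins in mammals). In mammals the transcription factor ATF4 raises many cytosolic synthetase genes when amino acids are short or the endoplasmic reticulum is under stress. In the liver, which secretes most plasma proteins, demand for charged tRNA is high.

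Livers came from fish aged 2 months, 6 of each of 4 genotypes. Z+ fish carried Tg(lfabp:eGFP-T2A-ZAAT), the Z variant of human α1-antitrypsin, a misfolding secretory protein. A+ fish carried Tg(lfabp:eGFP-T2A-AAT), the wildtype human protein. Z- and A- fish were the non-transgenic siblings of each line. The promoter, lfabp (fabp10a), is active in hepatocytes, so in both lines eGFP and the human protein are made in the liver and the A+ fish control for both. The transgenic parents were heterozygous and were crossed to wildtype fish, so both kinds of sibling came from the same crosses, and each liver was shared with a proteomics experiment that was not analysed here. The study asked which genes change with ZAAT and not with AAT, and compared Z+ with A+, Z+ with Z-, Z+ with the non-transgenic fish (Z- and A-, averaged here) and Z- with A-. A+ with A- was added here, as was an interaction, the log2 ratio of Z+ over Z- minus that of A+ over A-.

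Counted reads per fish ranged from 33898825 to 44715713, of which 0.104% to 0.259% fell on the 35 members. All 16 hepatocyte genes checked were present in every fish, and fabp10a was at 6626 CPM or more (CPM, counts scaled to the effective library size, which the TMM method sets). Z+ replicate 5 and Z- replicate 2 stood apart: 51.6% and 49.2% of their counts fell on vitellogenin genes, which encode the yolk precursors secreted by the liver, against 0.00586% to 5.19% in the other 22 fish. Z+ replicate 5 also had the lowest transgene level of the transgenic fish, 899 CPM. A+ replicate 2 carried egg cell transcripts (mean 7.01 log2 CPM over 17 genes, at most 3.50 in any other fish). Intestinal transcripts were carried by A- replicate 6, Z+ replicates 3 and 6 and A+ replicate 5. Those fish averaged 6.62 to 8.68 over 14 genes, and any other fish at most 4.41. Such list means include genes that did not pass the count filter. TMM factors, which lower the effective library size of a fish dominated by a few genes, ran from 0.595 in Z- replicate 2 to 1.70 in A+ replicate 2. In bulk liver, fewer cells of a type and less RNA per cell cannot be told apart.

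Among the cytosolic members, 2 fish of different genotype stood above the rest. With TMM scaling, Z+ replicate 5 and Z- replicate 2 were the 2 highest of the 24 fish for 19 of 21 cytosolic members (90.5%), for 1 of 14 mitochondrial members (7.14%) and for 3.86% of all genes tested. One of them was the highest fish for all 21 cytosolic members: Z+ replicate 5 for 13 and Z- replicate 2 for 8. In Z+ replicate 5 the cytosolic members lay 0.62 to 2.00 log2 units above their own mean over the 24 fish (median 1.4), and in Z- replicate 2 they lay 0.51 to 1.87 above it (median 1.27). The mitochondrial members in the same fish had medians of 0.26 and 0.25. Of the related lists described below, 2 had the same 2 fish highest, with other fish close behind. One was 3 genes of the complex scaffold and its partners (mean log2 CPM 4.86 and 5.08, next 4.79). The second was 15 cytosolic elongation factor genes (6.2 and 5.74, next 5.71). None of the other lists had both on top. For editing and release of tRNA, Z- replicate 1 was highest (3.07, against 3.03 and 3.04). For the ATF4-related list the 2 fish were at 3.98 and 3.41. For the eIF2 list they were at 4.03 and 3.335, the latter the lowest of 24 fish. Among the members, the threonyl enzyme gene tars was at 376 CPM in Z+ replicate 5 and at 33.0 to 89.3 CPM in the other Z+ fish. The lysyl enzyme gene kars was at 509 CPM there, against 159 to 223 CPM in the other Z+ fish.

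How far these 2 fish exceeded the rest depended on the scaling, since vitellogenin took about as many of their counts as all other genes together. On library totals alone they were the 2 highest fish for 2 of 21 cytosolic members (9.52%) and 0 of 14 mitochondrial members, against 0.297% of all genes. On library totals without the vitellogenin counts they were the 2 highest for 20 of 21 cytosolic members (95.2%) and 0 of 14 mitochondrial members, against 5.91% of all genes. The mean of the cytosolic members in Z+ replicate 5 was 1.32 log2 units above average with TMM scaling, 0.70 on totals alone and 1.65 on totals without vitellogenin. In Z- replicate 2 the same 3 values were 1.23, 0.48 and 1.36. That vitellogenin and the cytosolic members were high in the same 2 fish is a measurement, and its part in any difference between genotypes is given below as values without those fish.

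**Figure D1:**
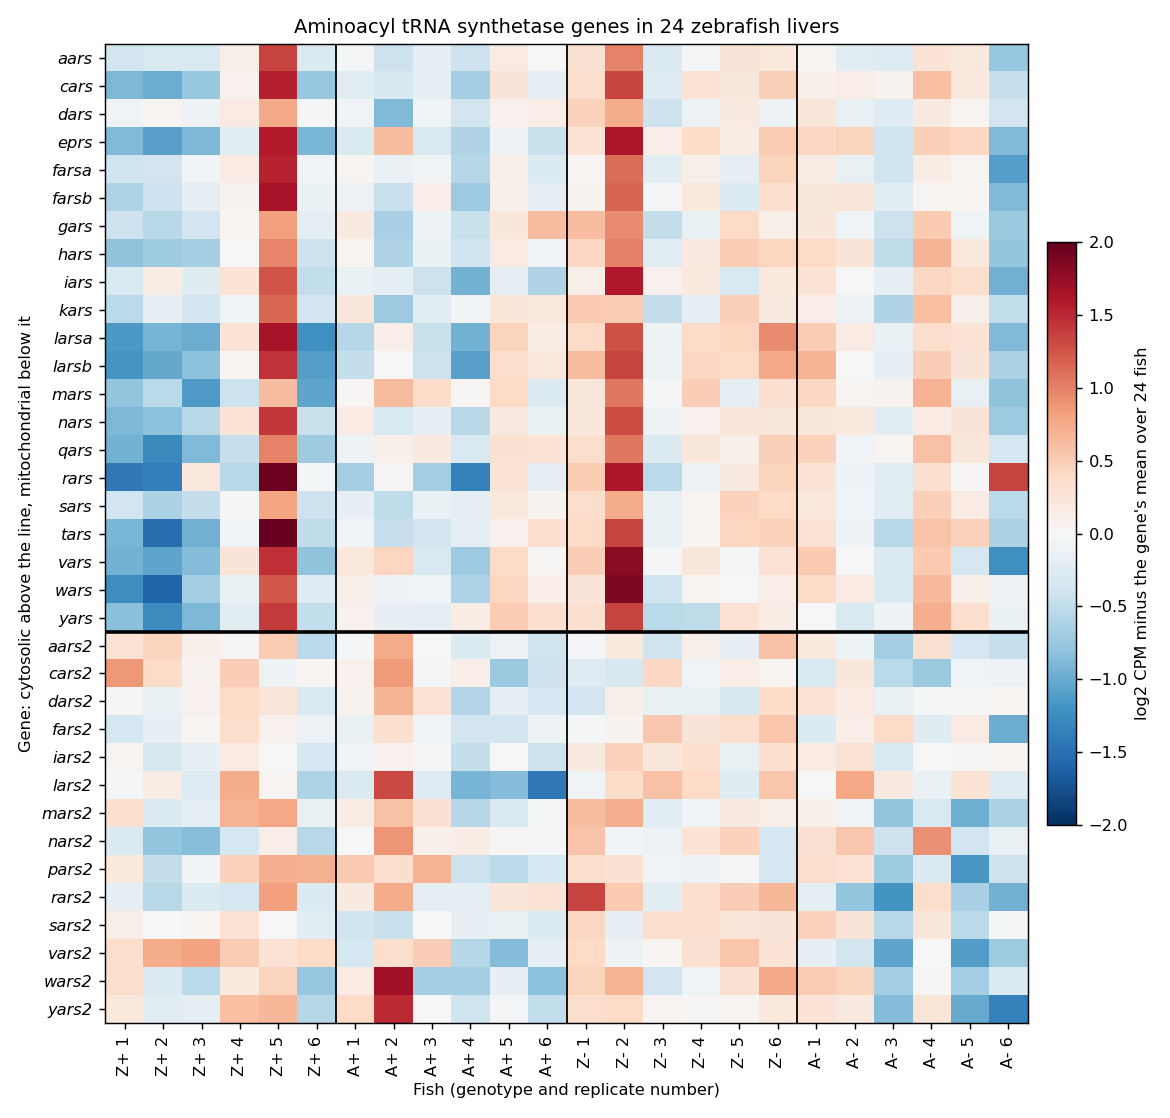
Level of each of the 35 members (rows, cytosolic above the heavy line and mitochondrial below it) in each of the 24 fish (columns, by genotype), as log2 CPM with TMM scaling minus the gene's mean over all fish. The columns of Z+ replicate 5 and Z- replicate 2 are red through the cytosolic rows (medians 1.4 and 1.27), and most of the other Z+ columns are blue there. A+ replicate 2 is red in most of the mitochondrial rows, though not in sars2 (-0.44).

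The other Z+ fish were at the opposite end. The mean of the cytosolic members, each set against its own mean, was -0.76, -0.78, -0.57, -0.02 and -0.51 in Z+ replicates 1, 2, 3, 4 and 6. Replicate 4 was thus close to the average of all fish and the other 4 were below it. In A+ fish the same value ran from -0.52 to 0.22 (median -0.13), in Z- fish from -0.22 to 1.23 (median 0.26) and in A- fish from -0.58 to 0.45 (median 0.08). For the mitochondrial members the range was -0.23 to 0.33 in Z+, -0.38 to 0.69 in A+, 0.04 to 0.29 in Z- and -0.52 to 0.14 in A-, and all 4 ranges overlapped.

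**Figure D2:**
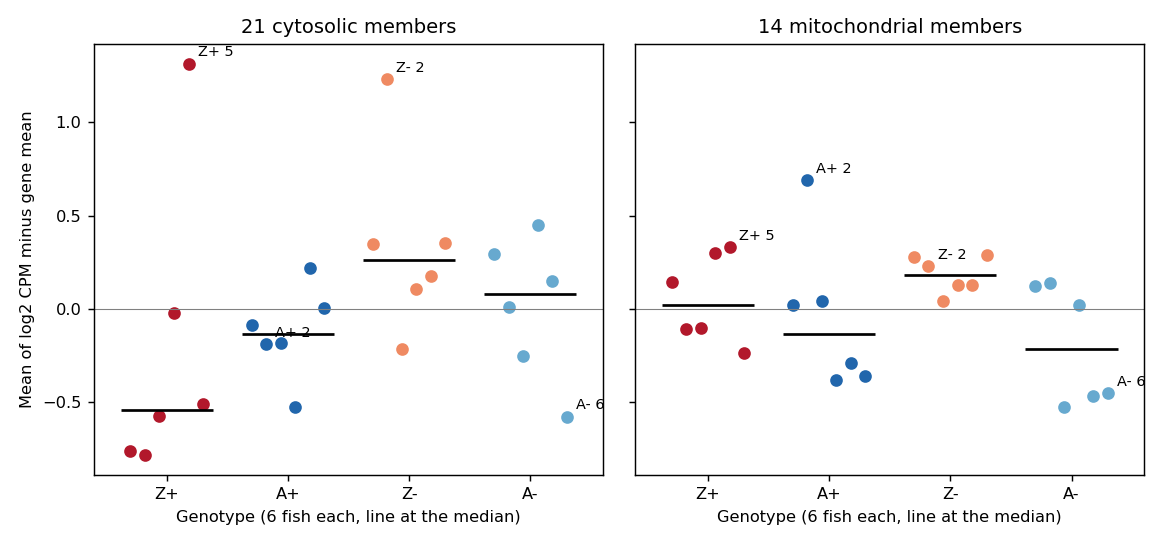
Mean deviation of the 21 cytosolic members (left) and the 14 mitochondrial members (right) in each fish, in log2 CPM with TMM scaling, by genotype (6 fish each). Lines are medians. Z+ replicate 5 (1.32) and Z- replicate 2 (1.23) lie above all other fish on the left, and A+ replicate 2 (0.69) lies highest on the right.

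With all 24 fish, hardly any member passed the test (edgeR's quasi-likelihood test, Benjamini-Hochberg adjusted p under 0.05 over all genes tested). In Z+ compared with A+, 0 of 35 members passed, while 11.8% of all genes tested did. At an unadjusted p under 0.05 there were 1 cytosolic and 2 mitochondrial members, and DESeq2 called 2 mitochondrial ones (16.6% of all genes). The median log2 fold change was 0.11 for the cytosolic and 0.12 for the mitochondrial members, against -0.02 for all genes. On library totals alone these 3 medians were -0.18, -0.16 and -0.19, 15 of 35 members changed sign, and the calls over all genes were 177 higher and 716 lower, against 698 and 700 with TMM scaling. In Z+ compared with Z-, 0 of 35 passed, against 12.2% of all genes (2 cytosolic and 3 mitochondrial members at an unadjusted p under 0.05, and 1 cytosolic by DESeq2, with 18.2% of all genes). The medians were -0.40 for the cytosolic and -0.11 for the mitochondrial members, and 20 of the 21 cytosolic members were on the lower side. The cytosolic members moved together by fish: all 21 were above their mean in Z+ replicate 5 and in Z- replicate 2. Counts of signs, here and below, are therefore not counts of independent genes. In Z+ compared with the mean of the non-transgenic fish, 1 of 35 passed, vars2, against 16.8% of all genes (1 cytosolic and 2 mitochondrial by DESeq2, with 20.4% of all genes), with medians of -0.26 for the cytosolic and -0.004 for the mitochondrial members. No member's 6 Z+ fish lay wholly outside the 6 A+ fish or the 6 Z- fish, which was so for 3.33% and 7.81% of all genes.

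Leaving out Z+ replicate 5 changed this picture for the cytosolic members. Without it, 13 of 21 were lower in Z+ than in Z- (median -1.02, all 21 below 0), where 8.74% of all genes tested were called lower. Against the non-transgenic fish 11 of 21 were lower (median -0.89, with 9.42% of all genes lower), and against A+ 2 of 21 (median -0.36, 6.86%). Without both Z+ replicate 5 and Z- replicate 2, 9 of 21 were lower than in Z- (median -0.69, 6.24%), 11 of 21 than in the non-transgenic fish (median -0.69, 8.82%) and 3 of 21 than in A+ (median -0.36, 7.02%). None of the 21 was higher in these 3 comparisons. Without A+ replicate 2 and A- replicate 6 as well, 13, 13 and 5 were lower (12.5%, 15.7% and 9.56% of all genes), and 2 were lower in A+ than in A- (6.61%). With all fish kept, limma voom with sample quality weights called 10, 10 and 2 lower (12.4%, 13.4% and 6.75%). Its lowest weights went to A+ replicate 2 (0.090), A- replicate 6 (0.34), Z+ replicate 5 (0.43) and Z- replicate 2 (0.64). These fish thus counted for less, and the voom calls are not separate from leaving them out. With all fish kept and weighted alike, edgeR on library totals alone called 0, 2 and 1 lower (2.43%, 5.47% and 6.07%). On library totals alone without both fish the counts were 7, 10 and 3, again all lower, with 4.55%, 6.64% and 4.65% of all genes. Leaving out Z- replicate 2 by itself gave 0, 0 and 0 (1, 1 and 1 lower and 0, 0 and 1 higher at an unadjusted p under 0.05), where 4.30%, 7.30% and 6.21% of all genes were lower. Leaving out the 4 fish with intestinal transcripts in place of these 2 also gave 0, 0 and 0 (at an unadjusted p under 0.05, 1 higher than in A+), where 2.14%, 4.15% and 4.98% of all genes were lower. With the vitellogenin level of each fish as a covariate and all fish kept, 2 of 21 (mars and qars) were lower in each of the 3 comparisons, where 7.63% to 10.2% of all genes were. Which library was left out thus decided the count, and the values below are given with and without these fish.

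The mitochondrial members were called at shares near those of all genes when these fish were left out. Without Z+ replicate 5 and Z- replicate 2, 1 of 14 was lower in Z+ than in A+ (nars2, with 7.02% of all genes lower), 1 of 14 lower than in Z- (rars2, 6.24%), and 1 lower and 1 higher than in the non-transgenic fish (nars2 and vars2, with 8.82% lower and 9.80% higher), with medians of 0.05, -0.16 and -0.02.

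**Figure D3:**
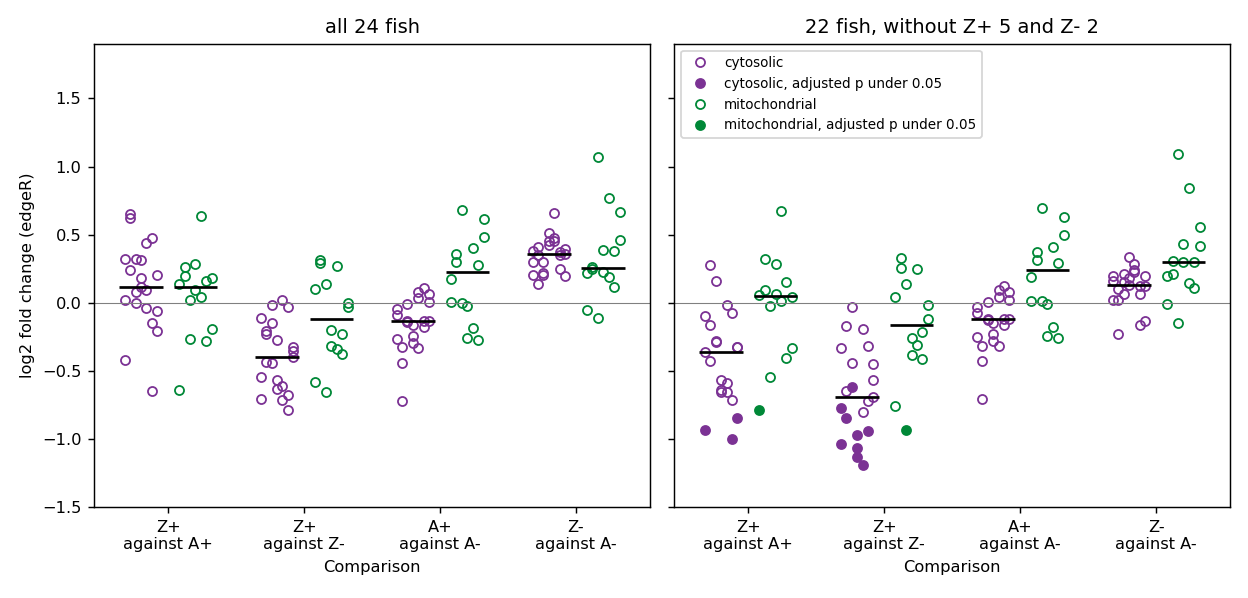
The log2 fold change of each cytosolic (purple) and mitochondrial (green) member in 4 comparisons, with all 24 fish (left) and without Z+ replicate 5 and Z- replicate 2 (right). Filled points passed an adjusted p of 0.05 and lines are medians. In Z+ against Z- the cytosolic median is -0.40 on the left and -0.69 on the right, with 9 filled points, and in A+ against A- no point is filled on either side.

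The glutaminyl and methionyl enzymes showed the low Z+ levels most clearly. The gene qars, which charges tRNA with glutamine, was at 42.8, 33.7, 44.8, 59.9, 164 and 50.6 CPM in the 6 Z+ fish, against 67.2 to 102 CPM in A+ (median 91.2), 68.4 to 172 CPM in Z- (median 101) and 64.8 to 123 CPM in A- (median 91.1). In qars, 5 of 6 Z+ fish were below all 18 other fish, and Z+ replicate 5 was above all but 1. The share of all genes with 5 of 6 Z+ fish placed so was not counted, here or for the genes below. Such placing can therefore not be called particular to these genes. With all 6 Z+ fish, no member was apart from the A+ or the Z- fish, where 3.33% and 7.81% of all genes were. With all fish qars was at -0.42 on the log2 scale (SE 0.30, adjusted p = 0.394) against A+ and -0.71 (SE 0.30, adjusted p = 0.122) against Z-. Without Z+ replicate 5 and Z- replicate 2 these were -0.93 (SE 0.18, adjusted p = 0.00389) and -1.04 (SE 0.19, adjusted p = 0.00176). Z+ replicate 5 was the highest Z+ fish for every cytosolic member, so leaving it out lowers Z+ and narrows its spread. The small adjusted p values without these fish are therefore no independent support, here or for the cytosolic genes below. The gene qars was chosen after its values were seen.

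The gene mars, for methionine, which also serves the initiator tRNA, was at 14.9, 17.6, 11.7, 19.1, 39.4 and 12.4 CPM in Z+ fish, against 26.2, 39.8, 33.2, 26.2, 33.9 and 21.1 CPM in A+ fish. Z- fish had 22.4 to 53.5 CPM (median 31.0) and A- fish 14.6 to 41.4 CPM (median 26.7). Apart from replicate 5, every Z+ fish was below every A+ and every Z- fish. With all 24 fish the log2 fold change of mars was -0.65 against A+ (SE 0.28, adjusted p = 0.141) and -0.79 against Z- (SE 0.29, adjusted p = 0.0701), the smallest p of any member in that comparison. Without Z+ replicate 5 and Z- replicate 2 it was -1.0 (adjusted p = 0.00893) and -0.94 (adjusted p = 0.0132). DESeq2 called mars lower than in Z- with all fish kept. Its mitochondrial partner mars2 did not move with it: it averaged 8.12 ± 2.67 CPM in Z+ and 7.15 ± 2.01 CPM in A+ (SD, n = 6 each), a log2 fold change of 0.18 (adjusted p = 0.669). Against Z- (8.13 ± 2.16 CPM, SD, n = 6) the log2 fold change of mars2 was -0.0018 (adjusted p = 0.997).

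Further genes were called lower than in Z- without those 2 fish, and were chosen after their values were seen. The gene eprs encodes a single protein that charges tRNAs with glutamate and with proline and belongs to the large complex. It was at 33.9, 29.5, 33.5, 53.3, 188 and 33.4 CPM in Z+ fish, against 75.6, 193, 68.8, 80.6, 69.5 and 89.3 CPM in Z- fish. In each group 1 fish was far above the other 5, and without that fish the groups did not overlap (log2 fold change -1.07, SE 0.26, adjusted p = 0.0117, against -0.64, SE 0.41, adjusted p = 0.329 with all fish). With all fish kept the groups overlapped through Z+ replicate 5 (188 CPM), so their parting follows from leaving that fish out. The share of all genes that part without those fish was not counted. The leucyl gene larsb was at 17.2 to 105 CPM in Z+ (median 20.5), against 36.1 to 99.0 CPM in Z- (median 56.0), with a log2 fold change of -1.19 without the 2 fish (adjusted p = 0.0118). Its duplicate larsa had -1.13 (adjusted p = 0.0258), and reads from stretches shared by the 2 genes may have been counted on either or on neither. The other genes called lower than in Z- were tars (-0.97), cars for cysteine (-0.84), hars for histidine (-0.77) and sars for serine (-0.62), beside qars and mars above.

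With all fish, dars, farsa and farsb differed least from Z- among the cytosolic members. They were chosen after their values were seen. The aspartyl gene dars averaged 96.4 ± 25.1 CPM in Z+ and 97.5 ± 29.3 CPM in Z- (SD, n = 6 each). The 2 subunits of the phenylalanyl enzyme, farsa and farsb, averaged 65.2 ± 43.2 and 66.9 ± 51.6 CPM in Z+, against 64.3 ± 25.7 and 68.2 ± 27.8 CPM in Z- (SD, n = 6 each). Z+ replicate 5 was the highest Z+ fish for each. None of these 3 genes was called with all fish or without the 2, and against Z- their log2 fold changes were -0.02, 0.02 and -0.03 with all fish and -0.03, -0.19 and -0.32 without the 2.

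**Figure D4:**
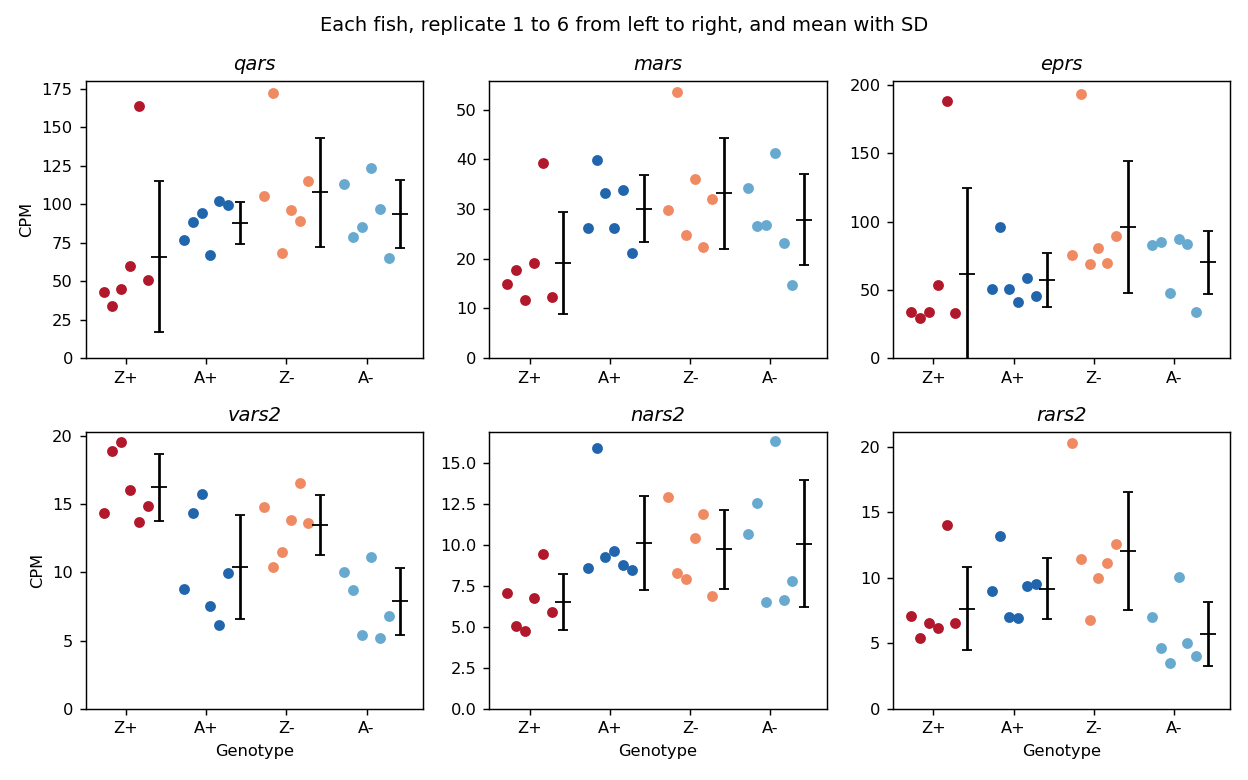
CPM of 3 cytosolic (top) and 3 mitochondrial members (bottom) in each fish, replicates 1 to 6 from left to right within a genotype, with the mean and SD of 6 fish at the right of each group. For qars, 5 of 6 Z+ fish (33.7 to 59.9 CPM) lie below all other fish. For vars2 the Z+ fish (13.7 to 19.6 CPM) lie above all A- fish and overlap the A+ and Z- fish. The share of all genes placed in either way was not counted.

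Among the mitochondrial members, vars2 and nars2 had the smallest p against A+ and against the non-transgenic fish, in opposite directions. Against Z- vars2 was not among the leading members. The valyl gene vars2 was at 14.3, 18.8, 19.6, 16, 13.7 and 14.9 CPM in Z+ fish, against 8.76, 14.3, 15.7, 7.53, 6.11 and 9.94 CPM in A+ fish, 10.4 to 16.6 CPM in Z- fish (median 13.7) and 5.18 to 11.1 CPM in A- fish (median 7.77). All 6 Z+ fish were above all 6 A- fish and overlapped the other 2 groups. The share of all genes with Z+ and A- fish so apart was not counted. The 7.81% counted for Z+ and Z- fish covers another pair of groups and both directions, so it is not the background for vars2. Against the mean of the non-transgenic fish vars2 rose by 0.66 on the log2 scale (SE 0.19, adjusted p = 0.0185). Against Z- alone it was 0.27 (SE 0.22, adjusted p = 0.461), while Z- compared with A- gave 0.77 (SE 0.22, adjusted p = 0.0963). Against A+ it was 0.64 (SE 0.22, adjusted p = 0.0603), and it was called there by DESeq2 (0.61) and without A+ replicate 2 (0.75) or replicate 3 (0.80). Those were the highest A+ fish for vars2, so the calls without them are no independent support. The call on vars2 was lost without Z+ replicate 2 (0.61) or replicate 3 (0.60), with adjusted p values of 0.0111 to 0.0546 over the fish left out. It was also lost on library totals (0.55), on totals without the vitellogenin counts (0.63), with no filter on low counts (0.57) and without the 4 fish with intestinal transcripts (0.59). Its cytosolic partner vars gave -0.04 against A+ (adjusted p = 0.963) and -0.28 against the non-transgenic fish (adjusted p = 0.654).

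The asparaginyl gene nars2 was at 7.10, 5.03, 4.77, 6.77, 9.46 and 5.92 CPM in Z+ fish, against 8.58, 16, 9.26, 9.65, 8.80 and 8.48 CPM in A+ fish. Again replicate 5 was the only Z+ fish inside the A+ range. Z- fish had 6.90 to 12.9 CPM (median 9.38) and A- fish 6.51 to 16.4 CPM (median 9.24). The log2 fold change was -0.64 against A+ (SE 0.24, adjusted p = 0.0826), -0.58 against Z- (SE 0.24, adjusted p = 0.108) and -0.61 against the non-transgenic fish (SE 0.21, adjusted p = 0.051). Without Z+ replicate 5 it was -0.78 against A+ (adjusted p = 0.0393) and -0.72 against Z- (adjusted p = 0.0469). That fish was the highest Z+ fish for nars2, so leaving it out lowers Z+ and narrows its spread. The adjusted p values without it are therefore no independent support. DESeq2 called nars2 lower than in A+ with all fish. The cytosolic partner nars, at 37.3 to 184 CPM in Z+ (median 49.0) and 47.0 to 78.9 CPM in A+ (median 62.6), gave 0.20 with all fish (adjusted p = 0.734) and -0.32 without replicate 5, a change of sign.

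The isoleucyl gene iars2 completed the 3 members with the smallest p against Z-. It averaged 13.2 ± 1.91 CPM in Z+ and 16.6 ± 2.26 CPM in Z- (SD, n = 6 each), -0.33 on the log2 scale (SE 0.14, adjusted p = 0.104). Its partner iars averaged 70.2 ± 37.3 CPM in Z+ and 82.4 ± 49.0 CPM in Z- (SD, n = 6 each). The fold change of iars was -0.23 (adjusted p = 0.695) and turned to 0.17 without Z- replicate 2, where iars was at 181 CPM.

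The wildtype transgene came with no called difference in these genes. In A+ compared with A-, 0 of 35 members passed, against 10.1% of all genes tested (0 cytosolic and 1 mitochondrial member at an unadjusted p under 0.05, and 0 by DESeq2, with 15.4% of all genes). The medians were -0.13 for the cytosolic and 0.23 for the mitochondrial members, against 0.00 for all genes, and no member's A+ and A- fish were apart (2.73% of all genes were). The 3 smallest p values belonged to mitochondrial genes: rars2 for arginine (0.68, SE 0.28, adjusted p = 0.12, or 0.92 and an adjusted p of 0.0404 without A- replicate 4), mars2 (0.48, SE 0.24, adjusted p = 0.207) and yars2 for tyrosine (0.62, SE 0.33, adjusted p = 0.244). Their cytosolic partners gave -0.72 for rars (adjusted p = 0.361), 0.11 for mars (adjusted p = 0.838) and 0.0063 for yars (adjusted p = 0.994). A- replicate 4 was the highest A- fish for rars2, so the call on rars2 without it is no independent support. The positive mitochondrial median rested on A+ replicate 2: without it the median was -0.08, and lars2 for leucine, for which it was the highest A+ fish, was called lower.

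That fish stood apart in the mitochondrial set. With TMM scaling, 13 of 14 mitochondrial members were above their mean in A+ replicate 2 (median 0.71), against 6 of 21 cytosolic members (median -0.17). A+ replicate 2 was the highest of 24 fish for 5 mitochondrial members. Of these, wars2 for tryptophan was at 6.89 CPM, against 1.18 to 2.37 CPM in the other A+ fish, and yars2 at 13.6 CPM, against 3.41 to 6.32 CPM. The place of the cytosolic members depended on the scaling. Their mean in A+ replicate 2 was -0.19 with TMM scaling, 0.58 on totals alone and 0.50 on totals without vitellogenin. For the mitochondrial members the same 3 values were 0.69, 1.46 and 1.38. Egg cell transcripts were highest in the same fish (7.01 log2 CPM against -2.28 to 3.50 in the other A+ fish), and their part in these levels was not tested.

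The 2 sets of non-transgenic siblings differed by no called member either. In Z- compared with A-, 0 of 35 passed, where 1.17% of all genes did (0 cytosolic and 3 mitochondrial members at an unadjusted p under 0.05, and 2 mitochondrial by DESeq2, with 5.59% of all genes), and no member's Z- and A- fish were apart, which 1.85% of all genes were. All 21 cytosolic members had a positive fold change (median 0.36) as did 12 of 14 mitochondrial ones (median 0.26), against a median of -0.01 for all genes. Without Z- replicate 2 the cytosolic median was 0.13 with 18 of 21 positive. The gene rars2 had the smallest p. It was at 20.3, 11.4, 6.80, 9.95, 11.1 and 12.6 CPM in Z- fish, against 7.0, 4.65, 3.46, 10.1, 5.02 and 4.06 CPM in A- fish, 1.07 on the log2 scale (SE 0.28, adjusted p = 0.064). Leaving out A- replicate 4, the highest A- fish, gave 1.31 and an adjusted p of 0.0195, and leaving out Z+ replicate 5, which is in neither group but shares the estimate of the spread, gave 1.08 and an adjusted p of 0.0366. Each of these fish was the highest of its group for rars2, so these adjusted p values are no independent support. The cytosolic partner rars gave 0.14 (adjusted p = 0.945). The valyl gene vars2 gave 0.77, above, with 0.66 for vars (adjusted p = 0.518), and mars2 gave 0.67 (SE 0.24, adjusted p = 0.169), with 0.25 for mars (adjusted p = 0.766).

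The interaction asks whether Z+ over Z- differed from A+ over A-. It was called for 0 of 35 members and for 0.525% of all genes tested (1 cytosolic and 1 mitochondrial member at an unadjusted p under 0.05, and 1 mitochondrial by DESeq2, with 7.99% of all genes), with medians of -0.28 for the cytosolic and -0.14 for the mitochondrial members. The smallest p belonged to rars2 (-1.34, SE 0.40, adjusted p = 0.0818). This gene averaged 7.64 ± 3.19 CPM in Z+ and 12 ± 4.50 CPM in Z-, and 9.17 ± 2.29 CPM in A+ and 5.71 ± 2.45 CPM in A- (SD, n = 6 each). The highest mean was that of Z- and the lowest that of A-, the 2 groups of non-transgenic siblings. Without Z+ replicate 5 and Z- replicate 2 the interaction of rars2 was -1.63 (adjusted p = 0.0462, with 0.960% of all genes called), and without A- replicate 4 it was -1.58 (adjusted p = 0.0403). Z+ replicate 5 and A- replicate 4 were the highest fish of their groups for rars2, so these adjusted p values are no independent support. For mars the interaction was -0.90 (SE 0.40, adjusted p = 0.198) and for nars2 -0.59 (SE 0.34, adjusted p = 0.315). The partners gave 0.51 for rars (adjusted p = 0.689), -0.48 for mars2 (adjusted p = 0.419) and -0.19 for nars (adjusted p = 0.841).

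Setting each cytosolic enzyme beside the mitochondrial one for the same amino acid gave 16 pairs, with eprs beside pars2 for proline and 2 cytosolic genes each beside fars2 and lars2. The genes gars, hars, kars, qars and tars had no partner among the members. In Z+ compared with Z- the cytosolic gene had the lower log2 fold change in 11 of 16 pairs (median difference -0.27), in 16 of 16 without Z+ replicate 5 (-0.64) and in 11 of 16 without both Z+ replicate 5 and Z- replicate 2 (-0.37). In Z+ compared with A+ it was lower in 7 of 16 pairs (0.07), and in 12 of 16 (-0.41) both without Z+ replicate 5 and without the 2 fish. In A+ compared with A- it was lower in 13 of 16 pairs (-0.24), with the arginyl pair furthest apart (-0.72 for rars and 0.68 for rars2). In Z- compared with A- it was lower in 6 of 16 pairs (0.09), or 11 of 16 without the 2 fish (-0.17). Pairs that share a gene are not independent, and these comparisons share fish.

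The arginyl gene rars departed most from the other cytosolic members in A- replicate 6, the fish with the most intestinal transcripts. In A- replicate 6 it was at 102 CPM, against 34.2 to 49.96 CPM in the other A- fish, although the other 20 cytosolic members were all below their mean there (1 of 21 was above it, rars itself). Set against the mean of the other 20, rars was 2.03 log2 units higher in A- replicate 6, 0.83 in Z+ replicate 3 and 0.49 in Z+ replicate 6, where the intestinal genes averaged 8.68, 7.28 and 7.24 log2 CPM. In A+ replicate 5, with intestinal genes at 6.62, the excess was 0.05. The other fish of each genotype lay between -0.71 and 0.69 in Z+, -0.87 and 0.23 in A+ and -0.14 and 0.03 in A-, and Z- fish between -0.34 and 0.41. Other cell type markers were high in the same fish. The 16 leukocyte genes averaged 1.5 log2 CPM in A- replicate 6, 0.97 in Z+ replicate 3 and 0.61 in Z+ replicate 6. These were the 3 highest values of 24, against -0.07 in A+ replicate 5. The 17 exocrine pancreas genes averaged 9.56 in A- replicate 6, where only A+ replicate 1 was higher (10.35). The part of intestinal, leukocyte or pancreas RNA in the rars counts was not tested.

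**Figure D5:**
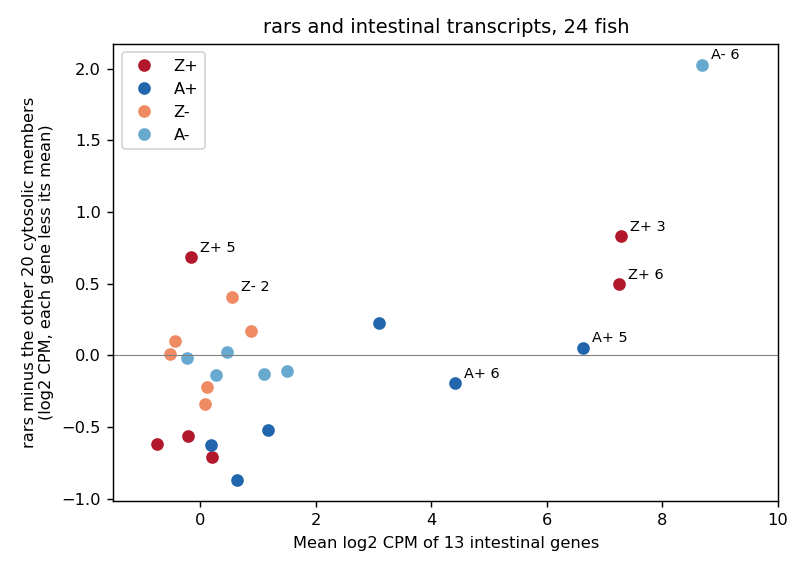
The excess of rars over the other 20 cytosolic members in each fish (vertical axis, log2 CPM with each gene set against its own mean), coloured by genotype. The horizontal axis is the mean log2 CPM of 14 intestinal genes, of which 13 passed the count filter. A- replicate 6 lies at 8.68 and 2.03, apart from all other fish.

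Genes that act with the synthetases were taken from lists by function. Of 3 genes for the complex scaffold and its partners, eef1e1 (AIMP3, a small scaffold protein) was lower in Z+ than in Z-, averaging 5.66 ± 2.43 CPM in Z+ and 10.6 ± 1.83 CPM in Z- (SD, n = 6 each), a log2 fold change of -0.91 (adjusted p = 0.0118). The scaffold gene aimp2 was higher in Z+ than in A+ (0.55, adjusted p = 0.0234) at 51.2 ± 11.4 CPM in Z+ and 34.9 ± 6.34 CPM in A+ (SD, n = 6 each). Of 6 genes for editing and release of tRNA, ptrh2, a peptidyl tRNA hydrolase, was lower than in Z- (-0.68, adjusted p = 0.0299). None of 11 cytosolic elongation factor genes passed in any of the comparisons of Z+ (medians 0.15 against A+ and 0.10 against Z-).

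On the mitochondrial side, 4 of 13 genes for translation factors and the amidotransferase that makes Gln-tRNA were lower in Z+ than in Z- and 0 were higher (median -0.21), where 12.2% of all genes were called in either direction. Among them were the ribosome recycling factor gene mrrf (-0.66, adjusted p = 0.0172), tsfm, an elongation factor (-0.67, adjusted p = 0.041), and qrsl1, an amidotransferase subunit (-0.77, adjusted p = 0.0435). In A+ compared with A- mrrf was lower as well (-0.59, adjusted p = 0.0364). Of 11 genes for processing and modification of mitochondrial tRNA, 2 were lower in Z+ than in Z-, against the same 12.2%: hsd17b10, a subunit of the RNase that trims tRNA ends (-0.59, adjusted p = 0.00971), and trmu, which thiolates tRNA (-0.90, adjusted p = 0.0155). In A+ the gene cdk5rap1 was below its A- level (-0.40, adjusted p = 0.0432).

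The list of amino acid stress genes was not tested as a group. Of 25 ATF4-related genes, 3 were called higher and 0 lower against A+ (median 0.09, with 11.8% of all genes called), and 1 higher and 0 lower against Z- (median -0.04, with 12.2%). The gene chac1, whose enzyme breaks down glutathione, averaged 193 ± 60.1 CPM in Z+, 104 ± 71.9 CPM in A+, 71.8 ± 19.1 CPM in Z- and 60.1 ± 18.7 CPM in A- (SD, n = 6 each), and was higher in Z+ than in Z- by 1.43 on the log2 scale (adjusted p = 0.00747). The pseudokinase gene trib3 was higher in Z+ than in A+ (0.75, adjusted p = 0.0195). In A+ the transcription factor gene cebpg was below its A- level (-0.84, adjusted p = 0.0228). Of 7 genes for the eIF2 kinases, eIF2α and its phosphatase, eif2s1a, which encodes eIF2α, was lower in Z+ than in A+ (-0.55, adjusted p = 0.0305) and than in Z- (-0.50, adjusted p = 0.0432), and the kinase gene eif2ak2 was higher than in A+ (0.63, adjusted p = 0.0497). Without Z+ replicate 5 and Z- replicate 2, 4 genes of the mitochondrial translation list, 3 of the mitochondrial tRNA list and 1 of the elongation factor list were lower than in Z- (6.24% of all genes were), and 1 ATF4-related gene was higher and 1 lower. In Z- compared with A- and in the interaction none of the genes on these 7 lists was called.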

How the data were processed

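Liver poly(A) RNA of 24 fish was sequenced from stranded libraries. The authors aligned reads with STAR to GRCz11 with the transgene added, counted them with featureCounts and merged features by gene name, and the deposited values are these raw counts, not normalized. The strand setting of the counting is not given in the sources used here, so reads of overlapping or antisense genes may not be told apart. The sequencing run of each fish and the fish set aside by the study are not in the labels, so all 24 were kept. The tests set differences between genotypes against the spread between fish of the same genotype.

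The test covered genes exceeding 100 counts in 3 fish or more, in R 4.3.3 with edgeR 4.0.16 (TMM, 1 quasi-likelihood model of 4 genotypes, two-sided, Benjamini-Hochberg adjusted p under 0.05 over all genes tested). SEs are the fold change divided by the root of F. CPM are TMM-scaled, and log2 CPM have a prior count of 1. Steps were tested on simulated data. Values are given for members past the threshold, at most 8 a comparison, or else the 3 with the smallest p, with their partners of the other compartment, and for at most 3 called genes of each further list. The members and lists were chosen with earlier results of these data known. Alternatives were DESeq2 1.42.0, its size factors, library totals, no filter, limma 3.58.1 voom with sample quality weights, the replicate number as a block, vitellogenin or exocrine pancreas genes as covariate, only the groups compared, and each fish left out. Leaving out sets of fish and totals without vitellogenin were chosen after seeing the data. RefSeq names (32 of 35 members matched, GRCz12tu) were used only as a check.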

Additional observations from a re-analysis of the deposited data

Results flagged for a closer look

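In groups of 6 fish, the highest or lowest fish was set against the spread of the others (Dixon's criterion at 95%). Of 148 groups tested, 42 had a fish apart from its group, where about 1 in 20, or 7.4, would be expected of normally distributed values. The members were tested as CPM without a log scale, and means over members were among the groups. The share of all genes with a fish so apart was not counted, so the 42 cannot be called particular to these genes. The flags are not independent, since a fish that stands apart does so in many genes.

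Z+ replicate 5 was above the other Z+ fish for all 21 cytosolic members, in CPM: aars 354, cars 82.0, dars 146, eprs 188, farsa 152, farsb 171, gars 273, hars 187, iars 143, kars 509, larsa 32.7, larsb 105, mars 39.4, nars 184, qars 164, rars 156, sars 255, tars 376, vars 108, wars 26.3 and yars 188. Its mean over the cytosolic members was apart as well (1.32 log2 units above average), and so was the mitochondrial member rars2 at 14.0 CPM. Z- replicate 2 was above the other Z- fish for 11 cytosolic members: aars 277 CPM, cars 70.7, eprs 193, farsb 122, iars 181, nars 172, rars 123, tars 241, vars 137, wars 40.6 and yars 183 CPM. It was below them for the mitochondrial member sars2 at 6.89 CPM. These 2 fish had 51.6% and 49.2% of their counts on vitellogenin genes.

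A+ replicate 2, the fish with the most egg cell transcripts, was above the other A+ fish for 5 mitochondrial members: aars2 at 6.97 CPM, lars2 at 7.23, nars2 at 16, wars2 at 6.89 and yars2 at 13.6 CPM. It was also above them for the cytosolic member eprs at 95.9 CPM. A- replicate 6, the fish with the most intestinal transcripts, was above the other A- fish for rars at 102 CPM.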

How the results depend on the processing

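Counts of called members depended mostly on which fish were kept. With each of the 24 fish left out in turn, the cytosolic count ran from 0 to 2 in Z+ against A+, 0 to 13 against Z-, 0 to 11 against the non-transgenic fish and 0 to 1 in the interaction, and was 0 to 0 in A+ against A- and Z- against A-. The mitochondrial count ran from 0 to 1, 0 to 2, 0 to 2 and 0 to 1 in the same 4, and from 0 to 1 in A+ against A- and in Z- against A-. In the 3 comparisons of Z+ (with A+, Z- and the non-transgenic fish, in that order), the cytosolic counts were 2, 2 and 2 with the vitellogenin covariate, 2, 10 and 10 by limma voom, 0, 1 and 1 by DESeq2, 1, 0 and 2 on library totals, 3, 9 and 11 without Z+ replicate 5 and Z- replicate 2 (3, 7 and 10 on totals too), and 5, 13 and 13 without A+ replicate 2 and A- replicate 6 as well, which gave 2 in A+ against A-. The interaction had 1 with the covariate. The mitochondrial counts were 1, 0 and 2 with the covariate, 2, 0 and 2 by DESeq2, 1, 3 and 2 by voom, 1, 1 and 2 without those 2 fish and 1, 2 and 2 without the 4. Against the non-transgenic fish they were 0 on totals, on totals without vitellogenin, with no filter, without the 4 fish with intestinal transcripts, and on totals without the 2 fish. In A+ against A- they were 2 with the covariate, 1 by voom and 1 without the 4. In Z- against A- they were 1 with the covariate, 2 by DESeq2 and 2 by voom. The interaction had 1 with the covariate, by DESeq2, by voom, without the 2 and without the 4. By DESeq2, 5.59% to 20.4% of all genes were called over these comparisons. No share of all genes is given for the covariate or voom in A+ against A-, Z- against A- and the interaction. Where a count has no such share in the text, it cannot be called more or less than among all genes. Totals alone moved the median of all genes to -0.19 in Z+ against A+. The sets of fish left out and totals without vitellogenin were chosen after seeing the data, and the cause was not tested.

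Values are given here for the members named by rule and their partners, and only ones that were not called changed sign (log2). Over all 35 members, library totals changed the sign of 15 in Z+ against A+ and of 1 to 5 in each other comparison. In Z+ against A+, nars turned to -0.080 on totals, -0.21 with the vitellogenin covariate, -0.23 by voom, -0.32 without the 2 fish, -0.35 on totals too and -0.37 without the 4, mars2 to -0.070 on totals and -0.066 on totals without the 2 fish, and vars to 0.040 on totals without vitellogenin, 0.0048 with the pancreas covariate and 0.30 without the intestinal fish. In Z+ against Z-, mars2 turned to 0.028 on totals without vitellogenin, 0.038 with the covariate, 0.062 with the pancreas covariate and 0.19 without the intestinal fish, and iars to 0.017 without them. In A+ against A-, yars turned to -0.0073 with no filter and -0.087 without the intestinal fish, and mars to -0.10 without the 4 and -0.017 without the intestinal fish. In Z- against A-, rars turned to -0.12 on totals, -0.24 with the covariate, -0.23 without the 2 fish and -0.24 on totals too, and mars to -0.058 without the 4. In the interaction, rars turned to -0.053 without the 2 on totals and -0.17 without the 4, and nars to 0.20 without the intestinal fish. With fish left out in turn or in sets, nars ran from -0.37 to 0.47, vars from -0.66 to 0.30 (both Z+ against A+), mars2 from -0.13 to 0.19, iars from -0.57 to 0.17 (both Z+ against Z-), yars from -0.087 to 0.16, mars from -0.10 to 0.26 (both A+ against A-), mars from -0.058 to 0.40, rars from -0.23 to 0.44 (both Z- against A-), and in the interaction rars from -0.31 to 0.88 and nars from -0.72 to 0.20.

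Fish numbers were read only as names, since the labels do not say whether they stand for anything else. Correlations of same-numbered fish ran from -0.45 to 0.77 (the highest for Z+ and A- replicate 6), with 13 of 36 over 0.1. These values cannot decide whether the numbers carry a pairing. With the replicate block, vars2 against the non-transgenic fish was again the 1 call, and 2 values changed sign, mars2 in Z+ against Z- (0.037) and yars in A+ against A- (-0.0016). Among 60 pairs of fish of 1 genotype, none was a duplicate. Depth limited the mitochondrial members most, at 34 to 978 counts a fish, against 131 to 13968 for the cytosolic ones.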
